A study of Mus musculus with 6 samples.

Results

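The 41 genes described here act in G2 and mitosis. They encode the mitotic kinases, the spindle checkpoint, centromere and kinetochore proteins, the anaphase machinery, spindle motors and the cytokinesis proteins. They were taken as a named list by gene symbol, without a rule on measured values, but with earlier results of these data known. All 41 were found among the 43412 genes quantified, and all 41 were among the 13749 genes with a mean of at least 1 TPM (a transcript level corrected for transcript length and library size) that were tested. The RNA came from GC-2spd cells, an immortalized mouse cell line derived from spermatocytes and described by its depositors as testis of strain C57BL/6J. There were 3 libraries of poly(A) RNA from control cells in 21% O2 (normoxia) and 3 from cells in 1% O2 (hypoxia), both in 5% CO2. The study used 48 h of low oxygen elsewhere, and for these libraries the duration is taken from those methods. Both groups were the same line in the same medium and differ in the labels by oxygen alone, and the line as such is known to carry the SV40 large T antigen and a temperature-sensitive p53, both of which act on the cell cycle. The study's methods say that experiments were routinely run in triplicate and repeated, without saying of these libraries that each came from its own culture, so the p-values measure only the spread between these libraries, which may be technical. Libraries are named by group and replicate number.

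In each division, CDK1 bound to cyclin A and then cyclin B drives the cell into mitosis, the spindle checkpoint holds it until every chromosome is attached, and the anaphase promoting complex (APC/C) with CDC20 then destroys securin and cyclin B. Most of these genes are transcribed in a wave late in the cell cycle. The DREAM complex keeps them low in resting cells, and the B-MYB-MuvB complex and FOXM1 raise them in G2, in many promoters through a CHR element (cell cycle genes homology region) and CCAAT boxes bound by NF-Y. In RNA of a whole culture, a change in the share of cells in G2 or mitosis and a change in RNA per cell cannot be told apart, whether up or down.

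RefSeq promoter windows (GRCm38.p6, 250 bases before to 50 after the transcription start) were held for 34 of the 41 genes. Aurkb, Cdc25c, Ccna2, Incenp, Kif20a, Tpx2 and Foxm1 had no window. The 120 bases before the start are shown for 6 genes, 5′ to 3′ on the strand of the gene, with the CHR (TTTGAA), its variant (TTTAAA) and the CCAAT box in capitals in either orientation (TTCAAA and ATTGG are the reverse forms). Top2a (chr11:99024190-99024309, minus strand) and Kif11 (chr19:37376262-37376381, plus strand) were higher in hypoxia. Espl1 (chr15:102296173-102296292, plus strand) and Bub3 (chr7:131560250-131560369, plus strand) held the same pair of elements and were not called. Both were called higher when libraries were scaled by the median ratio over genes. Cdc25b (chr2:131186828-131186947, plus strand) and Anln (chr9:22389207-22389326, minus strand) had large increases and no CHR in these bases. Anln held the CHR after the start, beginning at bases 22 and 29, and Cdc25b had none in its window.
Top2a: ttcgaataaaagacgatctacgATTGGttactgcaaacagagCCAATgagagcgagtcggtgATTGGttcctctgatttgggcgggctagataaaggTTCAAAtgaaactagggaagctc
Kif11: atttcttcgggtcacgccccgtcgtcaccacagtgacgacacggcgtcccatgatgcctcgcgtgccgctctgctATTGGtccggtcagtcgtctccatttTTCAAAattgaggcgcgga
Espl1: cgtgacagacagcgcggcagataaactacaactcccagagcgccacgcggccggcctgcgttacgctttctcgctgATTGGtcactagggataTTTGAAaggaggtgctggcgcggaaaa
Bub3: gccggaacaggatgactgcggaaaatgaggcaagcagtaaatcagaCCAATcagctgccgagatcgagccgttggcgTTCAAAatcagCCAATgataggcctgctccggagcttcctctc
Cdc25b: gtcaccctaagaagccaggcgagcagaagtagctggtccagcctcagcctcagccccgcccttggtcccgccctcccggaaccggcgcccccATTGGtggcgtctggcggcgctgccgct
Anln: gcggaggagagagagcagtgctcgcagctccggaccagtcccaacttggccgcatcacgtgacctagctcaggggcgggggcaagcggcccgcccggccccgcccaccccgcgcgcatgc

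In the windows of 300 bases, searched on both strands, the CHR was present in 24 of 34 genes (70.6%), against 20.2% of 27025 genes with a window. The CCAAT box was present in 26 genes (76.5% against 41.1%) and both elements together in 21 (61.8% against 9.0%). The CHR variant stood in 9 genes (26.5% against 14.9%). None of the 34 held an E2F site spelled TTTGGCGC, TTTCCCGC or TTTGCCGC, which 2.3% of all genes did. The core of the hypoxia response element, ACGTG, stood in 11 genes (32.4% against 21.8%), and because CACGTG holds it on both strands, such a site counts at neighbouring positions. When only the 250 bases before the start were read, 12 genes held the CHR (35.3% against 18.3%), so in the other CHR genes it lay across or after the start. The CHR was in 12 of the 16 higher genes with a window and in 12 of the 17 not called, the CCAAT box in 13 and 12, and ACGTG in 5 and 6. A match is a run of letters and not a shown binding site.

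**Figure D1:**
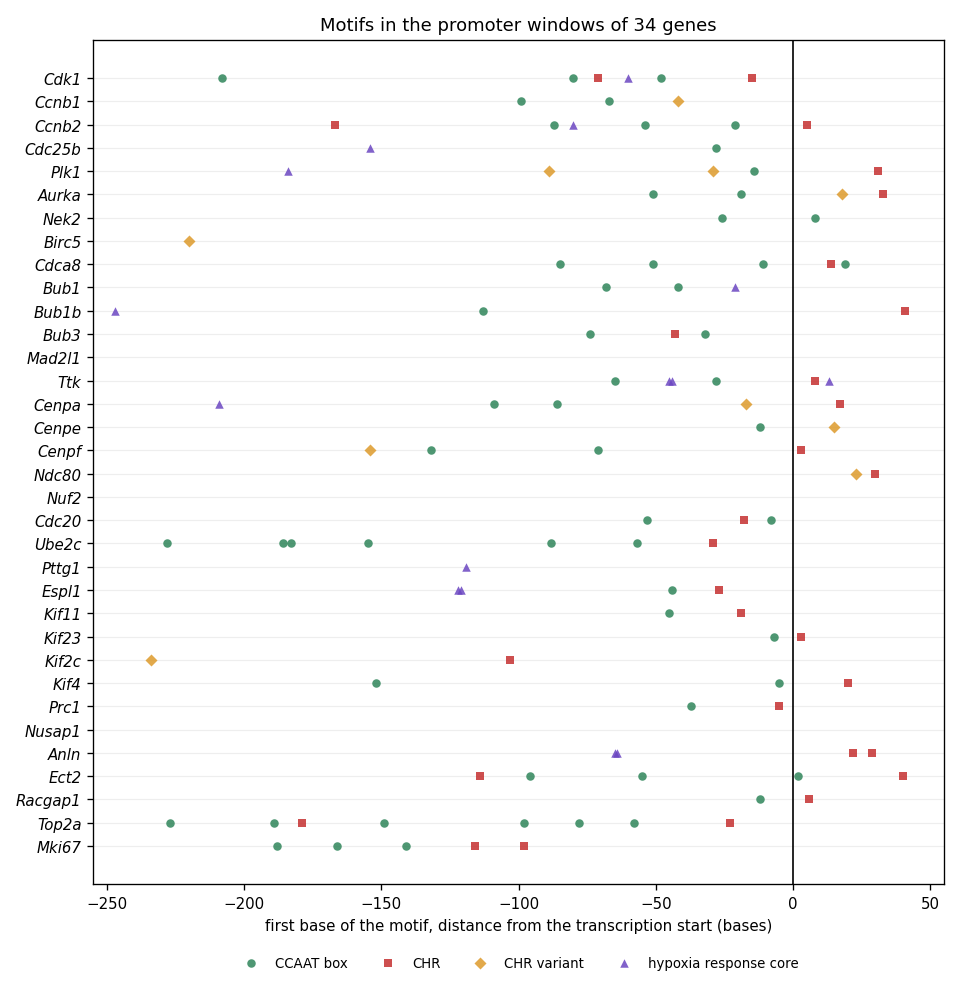
Position of each motif in the first promoter window of 34 genes, as the distance in bases from the transcription start to the motif's first base, with 1 line per gene in the order of their roles and 1 symbol per motif. CCAAT boxes lie before the start in 26 genes, and 12 genes have a CHR before the start.

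In hypoxia 20 of the G2 and mitosis genes rose, 1 fell and 20 did not pass the test. Their summed level was higher in every hypoxia library. It was 5542, 5329 and 5195 TPM in normoxia and 6065, 6527 and 6387 TPM in hypoxia. The higher genes were 48.8% of the 41 at an adjusted p under 0.05 (limma on log2(TPM + 1), Benjamini-Hochberg), against 17.9% of all genes tested. A single gene, Ccnb1, was lower (2.4%), against 36.1% of all genes tested. In 24 genes (58.5%) all hypoxia libraries stood above all normoxia libraries, against 21.4% of all genes, and in Ccnb1 and Kif20a they stood below, against 41% of all genes. The median log2 fold change was 0.20 over these genes, with a range of -0.36 to 0.80, against -0.13 over all genes tested, and 38 of the 41 lay above that median. Without normoxia 3 the median over these genes was 0.13.

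The median over all genes was below 0, and the split of calls moved with the scaling. When libraries were scaled by the median ratio over genes, 29 of the 41 genes were higher (70.7%, against 26.2% of all genes) and 0 were lower (against 26.3%). Ccnb1 then had a log2 fold change of -0.03 (adjusted p = 0.593, limma). The share of mitochondrial RNA also differed between the groups, 9.07% ± 0.044 of TPM in normoxia and 5.34% ± 0.127 in hypoxia (SD, n = 3). Its part in the results was assessed only by leaving those genes out. After that, 18 of the 41 genes were higher and 3 lower, against 2092 higher and 5619 lower of all 13845 genes tested. Aligned bases were alike, 5.75 to 6.61 gigabases in normoxia and 5.80 to 6.72 in hypoxia. No counts were used, so no counting interval can be given.

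**Figure D2:**
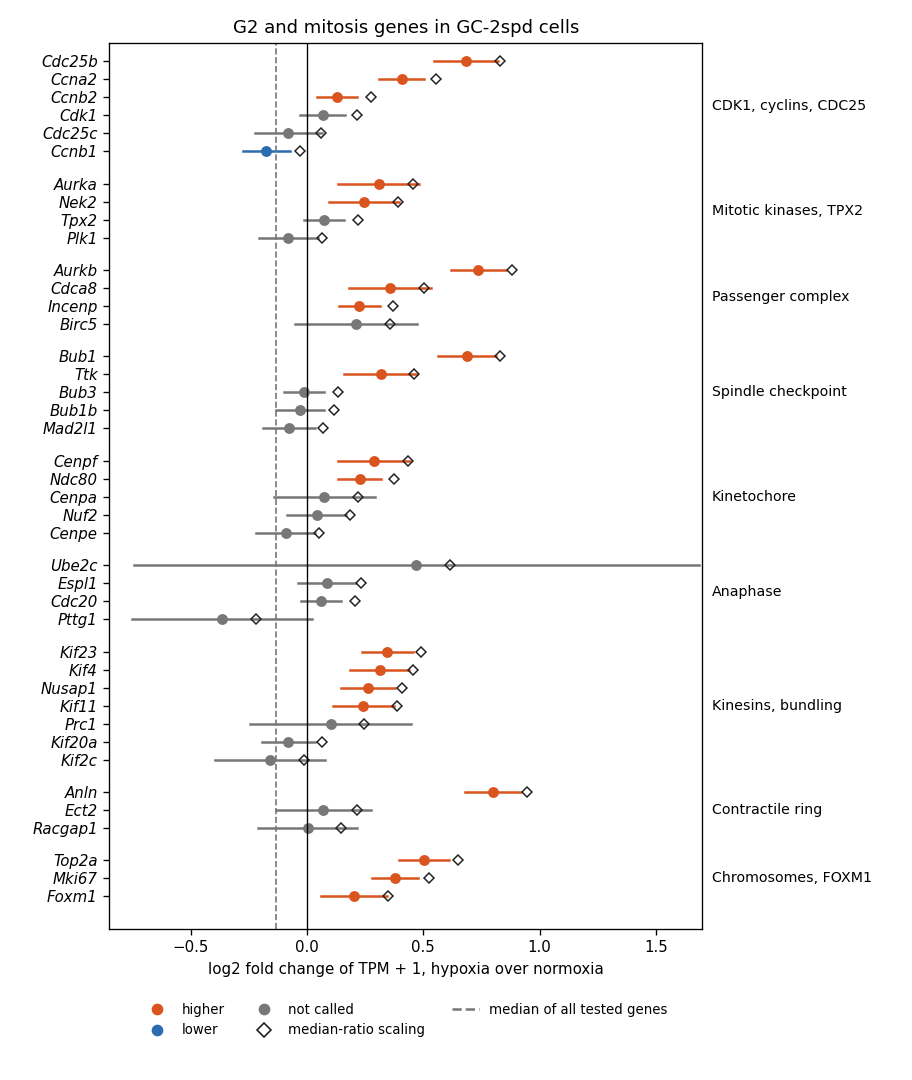
Log2 fold change of TPM + 1, hypoxia over normoxia, for the 41 genes grouped by role, with limma's 95% confidence interval (3 libraries per group). Orange is higher, blue lower and grey not called, open diamonds are the values with median-ratio scaling, and the dashed line is the median of all genes tested at -0.13. Anln, Aurkb, Bub1 and Cdc25b lie furthest to the right, and every diamond lies right of its point.

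The labels were first checked against known genes. All 14 hypoxia response genes listed for this purpose, among them Vegfa and Slc2a1, were higher in hypoxia, with a median log2 fold change of 2.09. The defining markers of germ cells were nearly absent. None of the 13 spermatocyte and meiosis markers reached a mean of 1 TPM, the highest value in any library was 0.604 TPM, and 6, Sycp1, Syce1, Hormad1, Stra8, Tex11 and Mael, were at 0 in all 6 libraries. None of 8 spermatid markers was tested, and 5 were at 0 throughout. Of the markers of other cells, the fibroblast and myoid list (6 of 10 tested) summed to 2290 to 2359 TPM in normoxia and 2723 to 2978 TPM in hypoxia. Its bulk was Col1a1, which was higher in hypoxia (log2 fold change 0.57, adjusted p = 8.15e-05, limma), and Col1a2, which was not called. Pdgfra and Pdgfrb were lower, and Thy1 was at 0. The Sertoli list (2 of 7) summed to 39.0 to 51.1 and 41.5 to 53.1 TPM. Its bulk was Gata4, which was not called (log2 fold change -0.23), while Sox9 was higher (0.95) and Fshr was at 0. Wt1, too low to be tested, had means of 0.062 TPM in normoxia and 0.751 TPM in hypoxia. The Leydig list (2 of 6) summed to 3.61 to 6.88 and 7.17 to 10.6 TPM. Insl3 was higher (1.25), Star was not called (-0.18), and Hsd3b1 and Lhcgr were at 0. Cyp11a1, too low to be tested, had means of 0.848 TPM in normoxia and 0.052 TPM in hypoxia. The macrophage list (3 of 6) summed to 25.04 to 28.2 and 20.1 to 21.6 TPM, with Cd68 higher (0.49), Cd14 lower (-0.84) and Adgre1, Ptprc and Itgam at 0, and the endothelial list (0 of 5) to 0.960 to 2.27 and 0.294 to 1.51 TPM, with Cdh5 at 0. Whether these levels have a part in the mitotic changes was not tested.

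CDK1 and its partners moved unevenly. Ccnb1, cyclin B1, the principal mitotic partner of CDK1, had 137, 135 and 136 TPM in normoxia and 119, 126 and 117 TPM in hypoxia. The groups did not overlap, and the log2 fold change was -0.18 (95% interval -0.28 to -0.07, adjusted p = 0.0115, limma). Ccna2, cyclin A2, which acts in S phase and at mitotic entry, moved the other way, from 216, 215 and 223 TPM to 278, 296 and 295 TPM. Every hypoxia library was above every normoxia library, with a log2 fold change of 0.41 (0.31 to 0.50, adjusted p = 0.000239, limma). It shares 12.5% of its exon bases with Exosc9 on the opposite strand, whose mean was 29.8 TPM against 254 TPM for Ccna2. Ccnb2, the second B-type cyclin, had 199 to 200.4 TPM in normoxia and 213 to 223 TPM in hypoxia (0.13, adjusted p = 0.0202, limma), a small rise. Its call was lost without normoxia 1, 2 or 3 or without hypoxia 2, with adjusted p from 0.0502 to 0.066, and also with FPKM (0.0758), without mitochondrial genes (0.132) and with no variance trend (0.0691). Cdk1 itself had 128, 131 and 137 TPM and then 138, 139 and 138 TPM, which did not overlap by a narrow margin and was not called (log2 fold change 0.07, -0.03 to 0.17). With median-ratio scaling Cdk1 was called higher (0.21, adjusted p = 0.00544, limma).

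The CDC25 phosphatases remove the inhibitory phosphates from CDK1. Cdc25b, which starts this at the centrosome, had 81.8, 94.0 and 85.3 TPM in normoxia and 141, 139 and 141 TPM in hypoxia. All 3 hypoxia libraries were far above the highest normoxia library, with a log2 fold change of 0.68 (0.55 to 0.82, adjusted p = 0.000121, limma). Cdc25c, the paralog that acts at mitotic entry, was at 30.9 to 33.1 and 29.3 to 32.3 TPM, and its groups overlapped (-0.08, -0.23 to 0.07, not called, and 0.06 with median-ratio scaling).

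Among the other entry kinases, Aurka and Nek2 rose and Plk1 did not pass the test. Aurka, the kinase of spindle poles, had 98.6, 87.8 and 85.4 TPM in normoxia and 105, 112 and 120.2 TPM in hypoxia. The groups did not overlap (log2 fold change 0.31, adjusted p = 0.0107, limma). Nek2, which separates the centrosomes, went from 55.9 to 60.5 TPM to 65.5 to 74.5 TPM (0.25, adjusted p = 0.0147, limma). Tpx2, the activator of Aurora A, had 171 to 177 and 179 to 184 TPM (0.07, -0.01 to 0.16), and Plk1, polo-like kinase, 111 to 119 and 104 to 115 TPM (-0.08, -0.21 to 0.05). With median-ratio scaling the value for Plk1 was 0.07, so its direction depends on the scaling. Tpx2 was called higher with median-ratio scaling (0.22, adjusted p = 0.00157, limma) and with quantile normalization (0.10, adjusted p = 0.0315, limma).

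The chromosomal passenger complex, which corrects faulty attachments and later directs cytokinesis, held 3 higher genes of 4. Aurkb, its kinase Aurora B, had 132, 134 and 144 TPM in normoxia and 235, 231 and 219 TPM in hypoxia. No library of one group came near the other, and the log2 fold change of 0.74 (0.62 to 0.85, adjusted p = 4.76e-05, limma) was the second largest of the called genes. Cdca8, borealin, had 69.0 to 81.8 and 91.5 to 97.9 TPM (0.36, adjusted p = 0.00602, limma). Incenp, the scaffold, had 118 to 120 and 137 to 142 TPM (0.23, adjusted p = 0.00224, limma). Birc5, survivin, had 278, 279 and 286 TPM and then 357, 359 and 269 TPM. Hypoxia 3 lay below all normoxia libraries, while hypoxia 1 and hypoxia 2 lay well above them. Birc5 was not called (0.21, adjusted p = 0.149, limma), but was called higher with median-ratio scaling (0.355, adjusted p = 0.0476, limma).

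Of the 5 spindle checkpoint genes, both kinases that start the signal were higher and the other three were not called. Bub1, a kinase of the outer kinetochore, had 66.7, 64.0 and 70.9 TPM in normoxia and 107, 107 and 112 TPM in hypoxia. The groups were far apart (log2 fold change 0.69, 0.56 to 0.81, adjusted p = 8.17e-05, limma). Ttk, the MPS1 kinase, had 39.8 to 44.3 and 50.5 to 56.4 TPM (0.32, adjusted p = 0.00612, limma). Bub1b, the BUBR1 paralog of BUB1, had 142 to 149 and 136 to 145 TPM, Bub3, which binds both, 128 to 130.0 and 126 to 129.6 TPM, and Mad2l1, the inhibitor of CDC20, 192 to 212 and 188 to 194 TPM. These 3 overlapped between the groups, with log2 fold changes of -0.03, -0.01 and -0.08, and all 3 were above 0 with median-ratio scaling, where Bub1b and Bub3 were called higher.

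In the centromere and kinetochore group, Ndc80, which binds microtubules, had 76.4, 75.6 and 76.1 TPM and then 88.9, 90.4 and 88.2 TPM (log2 fold change 0.23, adjusted p = 0.00261, limma). Its spread within a group was far below the difference. Cenpf, a large kinetochore and nuclear matrix protein, had 40.2 to 45.6 and 50.2 to 53.4 TPM (0.29, adjusted p = 0.00851, limma). Nuf2, the partner of NDC80, had 85.6 to 90.0 and 85.4 to 95.5 TPM (0.04), and Cenpe, a kinetochore kinesin, 39.0 to 41.9 and 36.6 to 39.0 TPM (-0.09, and 0.05 with median-ratio scaling). Cenpa, the centromeric histone H3 variant, had 143 to 150.0 TPM in normoxia and 167, 169 and 134 TPM in hypoxia, again with hypoxia 3 below normoxia (0.07, adjusted p = 0.521, limma). None of these last 3 was called, but Nuf2 was called higher with median-ratio scaling (0.19, adjusted p = 0.0351, limma).

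None of the 4 anaphase genes was called, and their spread differed widely. Cdc20, the activator of the APC/C in mitosis, had 167, 162 and 165 TPM and then 172, 174 and 169 TPM (log2 fold change 0.06, -0.02 to 0.15). Espl1, separase, the protease that cleaves cohesin, had 46.5 to 50.7 and 50.8 to 52.7 TPM (0.09, -0.04 to 0.21). Both were called higher with median-ratio scaling. Pttg1, securin, the inhibitor of separase, had 69.6, 45.3 and 67.2 TPM and then 45.1, 50.3 and 43.1 TPM, so that normoxia 2 stood among the hypoxia libraries (-0.36, adjusted p = 0.0992, limma). Ube2c, the ubiquitin-conjugating enzyme that works with the APC/C, had 302, 306 and 115 TPM and then 157, 428 and 420.2 TPM. Within each group 1 library was far below the others, and the interval ran from -0.75 to 1.69.

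For Ube2c, Pttg1, Birc5, Cenpa and, among the spindle proteins, Prc1, a library that stood apart was one in which the deposited tables join the gene to a longer assembled locus. For Ube2c, the assembled locus ran 57650 bases beyond the gene in normoxia 3 and 51746 bases in hypoxia 1, where it was on the other strand. It ran 0 bases beyond in normoxia 1, normoxia 2 and hypoxia 3, and in hypoxia 2 no assembled locus was matched to the gene. The joined locus had 174.6 TPM in normoxia 3, against 115 TPM for the gene, and 400.1 TPM in hypoxia 1, against 157 TPM. The assembled locus was 11766 bases longer than Birc5 in hypoxia 3, 6810 bases longer than Cenpa in hypoxia 3, 6859 bases longer than Prc1 in hypoxia 1 and 5373 bases longer than Pttg1 in normoxia 2. Joined loci also occurred where the value did not stand apart. The locus ran 87837 bases beyond Cdc25c in normoxia 2 (32.6 TPM) and 41239 bases beyond Ccna2 in hypoxia 3. For Aurkb it ran 29736 to 34280 bases beyond the gene in normoxia 1, normoxia 3 and hypoxia 1. For Foxm1 it ran 5967 to 68751 bases beyond the gene in all normoxia libraries and hypoxia 2, and 0 bases in hypoxia 1 and hypoxia 3. Joining thus nearly followed the groups for Foxm1, so no normoxia library could stand apart by it. For Birc5 such loci of 1327 to 5765 bases were present in 3 further libraries. Of the 41, 14 genes share exon bases with another annotated gene, Ube2c 22.8% with Tnnc2. The mean of Tnnc2 was 0.292 TPM, against 288 TPM for Ube2c. In all, 12 of the 41 genes had a locus over 1000 bases longer in 1 or more libraries, Ccnb1 in hypoxia 2 among them.

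Without the library in question, chosen after its value was seen, Birc5, Cenpa, Prc1 and Pttg1 each passed the test. Birc5 was higher without hypoxia 3 (log2 fold change 0.35, adjusted p = 0.000986, limma), Cenpa likewise (0.18, adjusted p = 0.0163, limma), and Prc1 was higher without hypoxia 1 (0.27, adjusted p = 0.0254, limma). Pttg1 was lower without normoxia 2 (-0.56, adjusted p = 0.0027, limma). With both libraries of the long Ube2c locus left out, Ube2c was higher (0.48, adjusted p = 0.0023, limma), while Ccnb1 (-0.16, adjusted p = 0.0847, limma), Ccnb2 (adjusted p = 0.0546, limma) and Cenpf (adjusted p = 0.0557, limma) were no longer called. The part of the joined loci in these values was not tested.

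**Figure D3:**
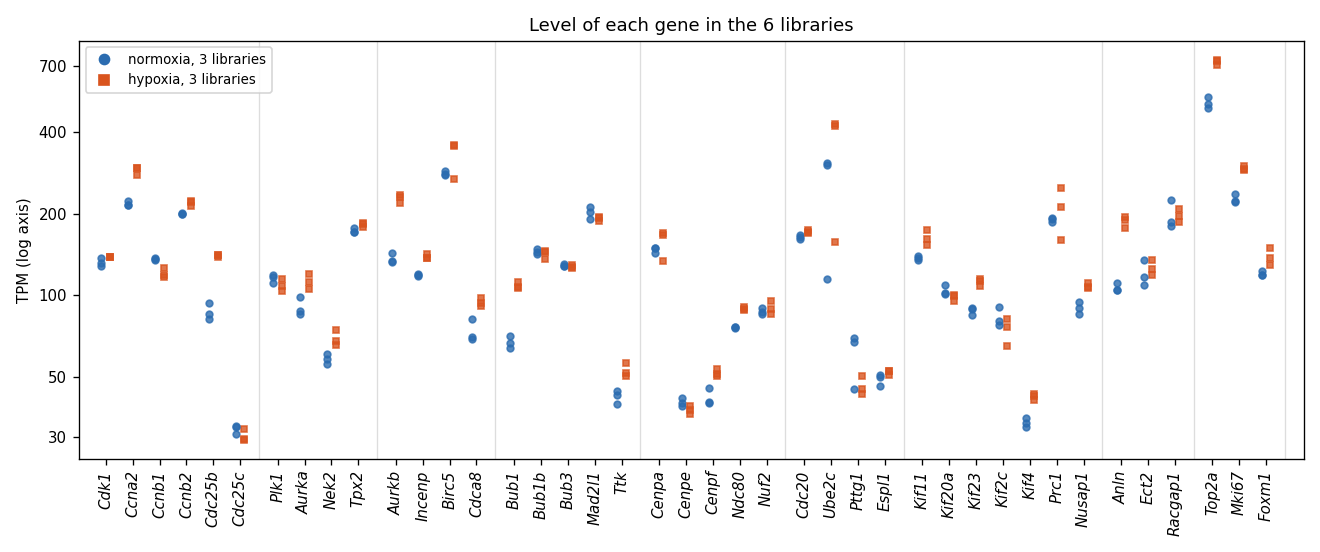
TPM of the 41 genes in each library on a log axis, with 3 normoxia libraries as blue circles and 3 hypoxia libraries as orange squares and grey lines between roles. Top2a is the highest in both groups, and single libraries stand apart for Birc5, Cenpa, Ube2c, Pttg1 and Prc1.

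Of the 7 kinesins and spindle-bundling proteins, 4 rose. Kif23, the motor of centralspindlin, had 89.1, 84.8 and 90.1 TPM in normoxia and 108, 115 and 113 TPM in hypoxia (log2 fold change 0.34, adjusted p = 0.000867, limma). Kif11, the motor that separates spindle poles, had 135 to 140.2 and 153 to 174 TPM (0.24, adjusted p = 0.00877, limma). Nusap1, a microtubule bundler, had 85.7 to 94.4 and 106 to 111 TPM (0.26, adjusted p = 0.00415, limma). Kif4, the chromokinesin, had 32.6 to 35.3 and 41.3 to 43.3 TPM (0.31, adjusted p = 0.00259, limma). All 4 separated the groups, but 15.1% of the exon bases of Kif4 are shared with Pdzd11 on the opposite strand, at a mean of 35.6 TPM, and strand use in the quantification is not given in the sources used here.

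The remaining 3 of this group did not pass the test. Kif20a, needed for cytokinesis, had 101 to 109 and 95.6 to 100.2 TPM, lower in every hypoxia library by a small margin (-0.08, and 0.07 with median-ratio scaling). It shares 29.3% of its exon bases with Cdc23 on the opposite strand, whose mean was 47.6 TPM against 101 TPM for Kif20a. Cdc23 was itself lower in hypoxia (-0.35, adjusted p = 0.00992, limma), and the part of the overlap was not tested. Kif2c, which disassembles microtubules at centromeres, had 77.4 to 90.9 and 64.8 to 81.6 TPM (-0.16, -0.40 to 0.08). Prc1, which bundles the central spindle, had 192, 191 and 187 TPM and then 160.3, 213 and 249 TPM, a spread in hypoxia that covered all normoxia values.

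The largest increase of all 41 genes was in the contractile ring. Anln, anillin, which links actin, myosin and RhoA in the ring, had 111, 105 and 104 TPM in normoxia and 177, 189 and 194 TPM in hypoxia. The groups were far apart, with a mean 1.75 times as high and a log2 fold change of 0.80 (0.68 to 0.92, adjusted p = 3.78e-05, limma). Ect2, the exchange factor that activates RhoA, had 109.5 to 135 and 119 to 134 TPM (0.07, -0.13 to 0.27). Racgap1, the GTPase-activating partner of KIF23, had 180.2 to 225 and 186 to 208 TPM (0.00, -0.21 to 0.22). Both overlapped between the groups, but Ect2 was called higher with median-ratio scaling (0.215, adjusted p = 0.0453, limma).

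All 3 genes of mitotic chromosomes and their transcriptional control rose. Top2a, the topoisomerase that untangles sister chromatids and the gene with the highest level of the 41, had 539, 509 and 489 TPM in normoxia and 734, 740 and 707 TPM in hypoxia. Every hypoxia library was above every normoxia library (log2 fold change 0.50, 0.40 to 0.61, adjusted p = 0.000151, limma). Mki67, the Ki-67 coat protein of mitotic chromosomes and a common marker of cycling cells, had 236, 222 and 220.4 TPM and then 289, 301 and 293 TPM (0.38, adjusted p = 0.00037, limma). Foxm1, the transcription factor of the G2 wave, had 119, 123 and 119 TPM and then 129, 137 and 150 TPM (0.20, adjusted p = 0.0266, limma), and its call was lost without normoxia 1, normoxia 3 or hypoxia 2, with an adjusted p of 0.0595 to 0.0723. The call was also lost without mitochondrial genes (0.14, adjusted p = 0.0804, limma), with no filter on low values (adjusted p = 0.0512, limma) and with no variance trend (adjusted p = 0.0528, limma). Foxm1 was joined to a longer assembled locus in all normoxia libraries but, in hypoxia, only in hypoxia 2, and the part of this in its rise was not tested.

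Ratios between genes of one library do not change when each library is scaled by a single factor, as with the median ratio. Quantile normalization can change them. They are given for pairs of paralogs and partners chosen after the values were seen, so they describe the unevenness and carry no test. Ccna2 had 1.60 ± 0.029 times the TPM of Ccnb1 in normoxia and 2.41 ± 0.096 times in hypoxia (SD, n = 3). Cdc25b had 2.70 ± 0.16 times that of Cdc25c and then 4.62 ± 0.22 times. Bub1 stood at 0.464 ± 0.032 of Bub1b and then at 0.767 ± 0.024, and Aurkb at 1.15 ± 0.060 of Incenp and then at 1.64 ± 0.065. Anln was below Ect2 in normoxia, at a ratio of 0.892 ± 0.069, and above it in hypoxia, at 1.48 ± 0.036. Smaller shifts were seen for Ndc80 over Nuf2, from 0.870 ± 0.023 to 0.991 ± 0.043.

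**Figure D4:**
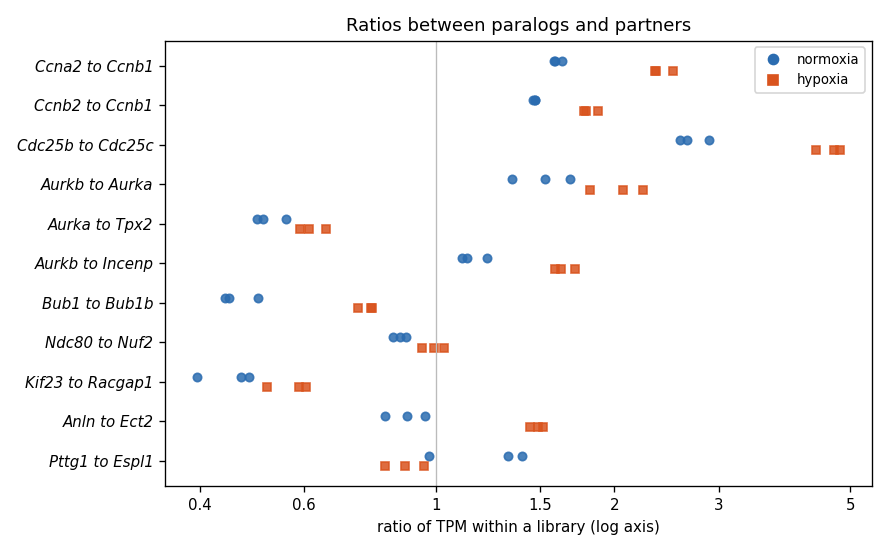
Ratio of the TPM of the first gene to that of the second within each library, on a log axis, for 11 pairs of paralogs or partners, with normoxia as blue circles and hypoxia as orange squares (3 libraries each). The hypoxia libraries lie to the right for each pair except Pttg1 to Espl1, where they lie to the left. Pairs were chosen after the values were seen. The first gene has the larger log2 fold change in each pair except that one, so the side is no result.

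Further genes of the same machinery, were read from lists set by function, beside shares over all genes tested of 17.9% higher and 36.1% lower, or 26.2% and 26.3% with median-ratio scaling. The balance of calls within these lists depended on the scaling, so the counts with median-ratio scaling follow each count. Condensin and cohesin, the rings that compact and hold chromosomes, had 10 higher and 3 lower of 22, with a median log2 fold change of 0.19 (14 and 1 with median-ratio scaling). Smc4, a condensin ATPase, had 223 ± 6.9 TPM in normoxia and 334 ± 14 TPM in hypoxia (0.58, adjusted p = 9.65e-05, limma), and Ncaph2 also rose, while Top2b and Pds5b were lower, Pds5b not so with median-ratio scaling. Further spindle motors and microtubule proteins had 9 higher and 6 lower of 30 (median 0.18; 16 and 4 with median-ratio scaling). Kpnb1, importin beta, and Ckap2l rose, but Ran, the GTPase that guides spindle assembly, and its exchange factor Rcc1 fell, Rcc1 by 1.19 on the log2 scale. Further cytokinesis proteins had 4 higher, Cit and Arhgap11a among them, and 3 lower of 19, with Spast and Tsg101 among them (median 0.07). With median-ratio scaling 10 were higher and 1 lower, and Tsg101 was not called.

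The further kinetochore and centromere list had 7 higher and 11 lower of 40 (median -0.04), a share of higher genes near that of all genes. With median-ratio scaling the balance turned, to 16 higher and 5 lower (median 0.11). Hjurp, the chaperone that deposits CENP-A, had 119 ± 13 TPM in normoxia and 232 ± 25 TPM in hypoxia (log2 fold change 0.95, adjusted p = 0.00037, limma), whereas Cenpm went from 58.6 ± 5.8 to 24.99 ± 1.7 TPM (-1.19, adjusted p = 6.59e-05, limma). Ckap5 also rose and Cenpb fell. The centrosome list had 4 higher, with Cep55 and Pcnt, and 4 lower of 16, with Tubg1 and Cep63 (median 0.01), against 7 and 2 with median-ratio scaling.

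APC/C subunits and partners had 2 higher, Ube2s and Anapc5, and 6 lower of 17, Cdc16 and Cdc27 among them (median -0.12). The lower share and the median were near those of all genes, and 3 were higher and 2 lower with median-ratio scaling. Further regulators of mitotic entry and exit had 5 higher and 8 lower of 23 tested (median -0.003), shares near those of all genes, and with median-ratio scaling the balance turned to 11 higher and 5 lower (median 0.14). Fbxo5, the EMI1 inhibitor of the APC/C, and Cks2, a subunit of CDK1 complexes, rose, while Cdkn3 fell by 1.13 and Cdc14a by 1.71 on the log2 scale, the latter from 4.67 ± 0.76 to 0.726 ± 0.051 TPM. The B-MYB-MuvB, DREAM and E2F list, which controls these genes, had 6 higher and 8 lower of 22 (median 0.06), the lower share near that of all genes, and with median-ratio scaling 10 higher and 6 lower (median 0.20). Lin52 and E2f1 rose, and E2f6 and Tfdp1 fell.

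Lists of earlier cell cycle phases were read in the same way. Replication licensing and origin firing had 6 higher, Cdc7 and Mcm3 among them, and 9 lower of 23, Gins1 and Gins4 among them (median -0.04), the lower share near that of all genes. With median-ratio scaling the balance turned to 12 higher and 5 lower (median 0.10). CDK inhibitors and G1 cyclins had 4 higher and 6 lower of 15 (median -0.13), the lower share and the median near those of all genes. With median-ratio scaling 5 were higher and 3 lower (median 0.01). Cdkn1a, the p21 inhibitor, had 52.0 ± 1.9 TPM in normoxia and 113 ± 6.1 TPM in hypoxia (log2 fold change 1.11, adjusted p = 1.66e-05, limma), and Cdkn2d, the p19 inhibitor of CDK4 and CDK6, also rose. Ccnd1, cyclin D1, had 265 ± 9.5 and 90.0 ± 5.1 TPM (-1.55, adjusted p = 4.04e-06, limma), and Ccne1, cyclin E1, fell by 1.22 on the log2 scale. No difference between the lists was tested.

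**Figure D5:**
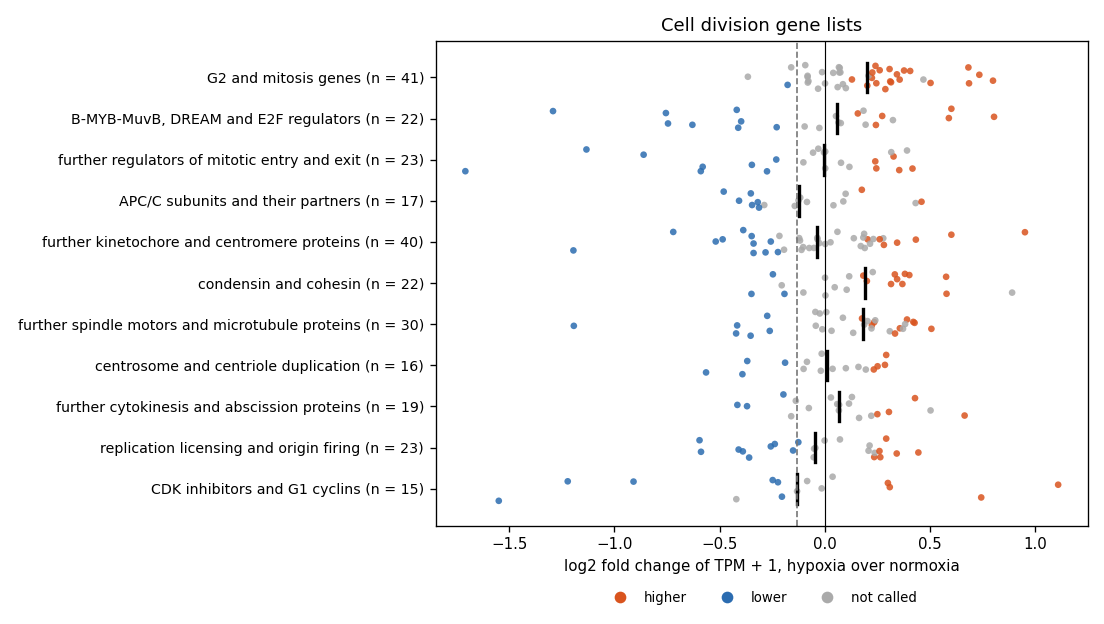
Log2 fold change of TPM + 1 for each tested gene of the 41 G2 and mitosis genes and of the further lists, with orange higher, blue lower and grey not called in limma, black bars for list medians and a dashed line for the median of all genes tested at -0.13. Without scaling between libraries, as plotted, 36.1% of all genes are lower, the 41 genes have 1 lower call and each other list has 3 or more, whereas with median-ratio scaling condensin and cohesin and the cytokinesis list have 1 each.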

How the data were processed

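Poly(A) RNA of 3 normoxia and 3 hypoxia libraries was sequenced in pairs. Per the labels and the study's methods, the authors trimmed reads with cutadapt, aligned them to mm10 with HISAT2 and quantified genes with StringTie; versions and the annotation release are not given in the sources used here. The deposited coverage is a mean read depth, the deposited FPKM is scaled by length and library size, and the deposited TPM lists assembled loci beside annotated genes, so that a column sums to nearly 2 times the usual total. The design assumed an ordinary TPM table; only annotated genes were analysed, without rescaling. The authors tested counts with edgeR; counts were not used here.

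Of 43432 gene IDs, 42462 were matched to GENCODE mouse release M21 symbols and TPM was summed per symbol. Genes with a mean of at least 1 TPM entered limma 3.58.1 (R 4.3.3) on the log2(TPM + 1) scale (empirical Bayes with a variance trend, 2-sided, Benjamini-Hochberg over all 13749 genes, threshold 0.05); the pseudocount of 1 understates changes of low genes. The steps were checked on simulated data. Depth was calculated as aligned bases from coverage and FPKM. Groups came from the labels, which give no batch. The alternatives covered pseudocount, filter, FPKM, scaling, mitochondrial genes, variance trend, replicate block and each library left out; the restriction to nuclear protein-coding genes and the removal of both libraries with a long Ube2c locus were chosen after seeing the data. All 41 members are named. Of each further list, up to 2 called genes per direction with the smallest adjusted p are named, and Cdc23 for the exon bases shared with Kif20a. Members and lists were chosen with earlier results of these data known. Promoter windows are from RefSeq.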

Additional observations from a re-analysis of the deposited data

How the results depend on the processing

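Of the 41 genes, 18 to 22 were higher and 1 to 2 lower when each library was left out in turn, and the median log2 fold change ran from 0.13 to 0.23. Of all 13749 genes tested, 2101 to 2295 were then higher and 4315 to 4781 lower. The count of higher genes was 18 to 29 over all alternatives, and 1958 to 3603 over all genes tested in them. The count of lower genes was 5 with FPKM, 0 with median-ratio scaling, 3 without mitochondrial genes and 0 without both libraries of the long Ube2c locus, against 1. In the same order, 5321 of 12173, 3622 of 13749, 5619 of 13845 and 3800 of 13749 of all genes tested were lower. The FPKM calls added Plk1, Mad2l1, Cenpe and Kif20a. The median was 0.35 with median-ratio scaling. With a replicate block, 19 of the 41 were higher and 1 lower, against 2281 and 4674 of all 13749 genes tested. Only the call of Ccnb2 was lost (adjusted p = 0.054, limma). Same-numbered libraries did not deviate together (r of 0.0109 to 0.0333 for the 3 numbers), so the numbers were not taken as pairs. Directions turned only in genes that were not called. With median-ratio scaling these were Plk1 (0.065), Bub1b (0.115), Bub3 (0.133), Mad2l1 (0.068), Cdc25c (0.061), Cenpe (0.051) and Kif20a (0.065), and with quantile normalization Bub3 (0.028), Cdc25c (0.072) and Cenpe (0.043). Racgap1 had -0.05 with FPKM, -0.056 without mitochondrial genes, -0.027 with nuclear protein-coding genes only and -0.078 without both libraries, and -0.059 to 0.10 over single libraries left out. Prc1 ran from -0.042 to 0.27 and Nuf2 from -0.001 to 0.078 over those, with Nuf2 at -0.01 with FPKM and -0.016 without mitochondrial genes. Read only before the start, the windows held the CHR in 12 genes and the CHR with a CCAAT box in 11, against 24 and 21. The cause of these shifts was not tested. Having 3 libraries per group and no counts limits the precision.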

Other observations

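The 6 called genes with the largest log2 fold changes were Anln, Aurkb, Bub1, Cdc25b, Top2a and Ccna2. Of the 4 with a promoter window, Anln, Bub1 and Cdc25b held the hypoxia response core ACGTG and Top2a did not, against 11 of all 34 genes with a window. Over all 27025 genes with a window the share was 21.8%. By call, the core was in 5 of the 16 higher genes with a window and in 6 of the 17 not called. The core stood at 64 and 65 bases before the start in Anln, where both strands of 1 CACGTG are counted, at 21 bases before it in Bub1 and at 154 bases before it in Cdc25b. This comparison was chosen after the values were seen and carries no test.

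Across the 41 genes the log2 fold change was related only weakly to the mean level (Pearson r = 0.26 and Spearman rho = 0.20 over genes of the same 6 libraries, which are not independent replicates).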
